A study of Homo sapiens with 11 samples.

Results

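The genes described here are long RNAs that carry microRNA hairpins in their transcripts. Among them are 3 of the host genes of let-7 and its genomic companions. They were chosen by symbol: MIR99AHG, MIR100HG, MIRLET7BHG, MIR17HG, MIR22HG, MIR503HG, MIR1-1HG and MIR133A1HG. Of these 8 genes, 7 were found among the 19990 genes of the count table, and MIR22HG was not analysed here. All 7 passed the filter on low counts, which removed 0 genes. Their summed share of a library's counts was 0.0104% to 0.0144%.

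Cardiomyocytes were made from the WTC11 line, human induced pluripotent cells used here at passage 63, with the GSK3 inhibitor CHIR99021 followed by the Wnt inhibitor IWP2. The culture medium held B27 supplement including insulin, and RNA was taken at Day 30 (4 wells), Day 60 (3 wells) and Day 113 (4 wells). All 11 wells were parallel wells of a single differentiation, and their spread says nothing of other differentiations or lines. Day and collection coincided and cannot be told apart. Libraries held 24.07 to 34.55 M counts (M, units of 1000000), and levels are given as CPM, counts per M counts of the library after TMM scaling.

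The 11 cardiomyocyte markers examined were detected in every library, with a summed level of 33480 to 48342 CPM. Markers of other cell types were also present and moved with day. The sum of 7 endothelial markers was 54.1 to 78.4 CPM at Day 30, 38.9 to 61.9 CPM at Day 60 and 188 to 762 CPM at Day 113. The sum of 10 endoderm and epithelial markers was 2027 to 3459 CPM at Day 30, 936 to 1092 CPM at Day 60 and 1098 to 1816 CPM at Day 113. From Day 60 to Day 113, 2 of these 10 rose, KRT8 and KRT18, and 3 fell, where 12.9% and 11.1% of all genes did. In bulk wells, fewer cells of a type and less RNA per cell cannot be told apart.

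A microRNA is cut from a hairpin in a longer transcript, first by DROSHA with DGCR8 in the nucleus and then by DICER1 in the cytoplasm, and is loaded onto an Argonaute protein. It pairs with messenger RNAs mainly through its seed, bases 2 to 8, and lowers their stability or translation. The let-7 family is best known for restraining genes of early development such as LIN28B and HMGA2, while LIN28 proteins in turn block let-7 maturation. In heart muscle, miR-1 and miR-133a are muscle microRNAs made from shared transcripts that SRF and MEF2 factors are known to drive. The libraries were made from poly(A) RNA, so what was counted is the long host transcript and not the mature microRNA.

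The mature sequences (RefSeq, GRCh38.p14, all 20 loci looked for were matched) show what these hosts have in common and are printed with the seed in capitals. The 20 loci gave 16 distinct mature microRNAs with 11 seeds. MIR99AHG and MIR100HG carry parallel clusters of 3, in which the seeds of the miR-99 and miR-100, let-7 and miR-125b members are the same, and MIRLET7BHG carries a further pair of let-7 genes.
miR-99a-5p (MIR99AHG): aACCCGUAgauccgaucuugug
miR-100-5p (MIR100HG): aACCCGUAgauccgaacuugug
let-7c-5p (MIR99AHG): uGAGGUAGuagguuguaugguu
let-7a-5p (MIR100HG and MIRLET7BHG): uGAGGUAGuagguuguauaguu
let-7b-5p (MIRLET7BHG): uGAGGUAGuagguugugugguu
miR-125b-5p (MIR99AHG and MIR100HG): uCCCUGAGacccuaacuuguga

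The remaining hosts carry microRNAs with other seeds. MIR17HG, the host of the miR-17-92 cluster, holds 6 hairpins with 4 seeds. MIR503HG holds miR-503, and miR-424 lies 50 bases outside its RefSeq span. MIR1-1HG and MIR133A1HG each hold 1 copy of miR-1 and 1 copy of miR-133a, so that both genes feed the same mature sequences.
miR-17-5p (MIR17HG): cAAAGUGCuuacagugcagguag
miR-20a-5p (MIR17HG): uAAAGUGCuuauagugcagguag
miR-18a-5p (MIR17HG): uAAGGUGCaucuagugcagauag
miR-19a-3p (MIR17HG): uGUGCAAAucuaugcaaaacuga
miR-19b-3p (MIR17HG): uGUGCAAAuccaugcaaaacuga
miR-92a-3p (MIR17HG): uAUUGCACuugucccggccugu
miR-503-5p (MIR503HG): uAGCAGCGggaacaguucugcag
miR-424-5p (beside MIR503HG): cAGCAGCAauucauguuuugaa
miR-1-3p (MIR1-1HG and MIR133A1HG): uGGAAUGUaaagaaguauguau
miR-133a-3p (MIR1-1HG and MIR133A1HG): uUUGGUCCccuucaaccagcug

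The 7 hosts lie on 7 chromosomes and range widely in size (RefSeq, GRCh38.p14). MIR99AHG spans 561.2 kb (chromosome 21, 16070488 to 16631727, plus strand) and MIR100HG spans 394.5 kb (chromosome 11, 122028329 to 122422871, minus strand). MIRLET7BHG spans 27.9 kb (chromosome 22, 46085997 to 46113928, plus strand) and MIR17HG 6.9 kb (chromosome 13, 91347687 to 91354577, plus strand). MIR503HG spans 3.3 kb (chromosome X, 134543377 to 134546630, minus strand). MIR1-1HG spans 20.3 kb (chromosome 20, 62550453 to 62570764, plus strand) and MIR133A1HG 5.9 kb (chromosome 18, 21825479 to 21831406, minus strand). In the GENCODE v29 exons, the 6 hairpins of MIR17HG, both let-7 hairpins of MIRLET7BHG and both hairpins of MIR133A1HG fall in exons of their hosts. The hairpins of MIR99AHG and MIR100HG, and those of MIR1-1 and MIR503, share no exon base with their hosts there. MIR133A2 and MIR424 overlap exons of MIR1-1HG and MIR503HG by 25 and 19 bases. Of all hairpins, 1 has a row of its own in the table, MIR125B1 inside MIR100HG, at 0.341, 0.882 and 0.599 CPM on the 3 days and not called in any comparison.

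Levels between genes were compared per length, as CPM per kb of GENCODE v29 exons, which is approximate because the annotation used for counting is not given in the sources used here. At Day 30 the order was MIR1-1HG (5.70 CPM per kb), MIR100HG (4.12), MIR133A1HG (3.46), MIR17HG (0.753), MIR99AHG (0.657), MIR503HG (0.239) and MIRLET7BHG (0.035). The wells of the first 3 overlapped, with 3.96 to 8.14, 3.86 to 4.27 and 2.38 to 4.44 CPM per kb, so their order is not resolved. With the shorter basic exon set MIR100HG came first, at 7.16 CPM per kb. At Day 113 MIR133A1HG (8.99 CPM per kb, wells 6.99 to 10.8) and MIR1-1HG (8.38, wells 6.62 to 10.2) overlapped at the top. Below them came MIR100HG (3.39) and MIR503HG (2.59, wells 1.83 to 3.11), which had moved past MIR17HG (0.695) and MIR99AHG (0.626). The 2 muscle hosts and MIR100HG were the highest on each day, and MIRLET7BHG was the lowest on each day.

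**Figure D1:**
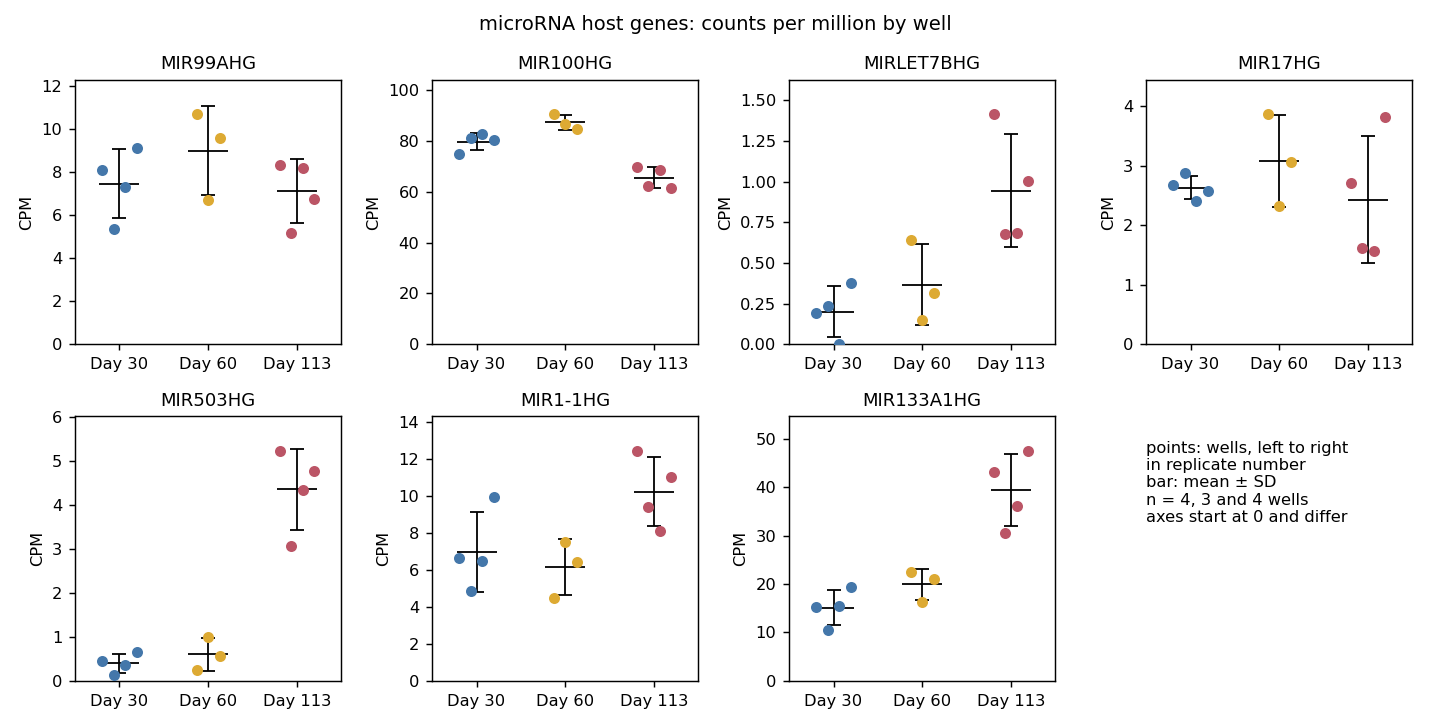
Level of each of the 7 host genes in CPM (vertical axes, from 0, differing between panels) in every well by day; points are wells and bars are the mean ± SD (n = 4, 3 and 4). MIR503HG and MIR133A1HG at Day 113 sit above all earlier wells, MIR100HG at Day 113 sits below them, and MIR99AHG and MIR17HG overlap between days.

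The calls among these hosts lay in the comparisons that include Day 113. Between Day 60 and Day 113, 4 of 7 were called by edgeR: MIR503HG, MIR133A1HG and MIR1-1HG rose and MIR100HG fell. Over all genes, 24% were called in this interval, 12.9% higher and 11.1% lower. From Day 30 to Day 113, 3 of 7 were called, MIR503HG and MIR133A1HG higher and MIR100HG lower, where 34.5% of all genes were called (17.3% higher and 17.2% lower). Between Day 30 and Day 60, edgeR called 0 of 7, at an unadjusted p under 0.05 also 0, where 10.3% of all genes were called (4.39% higher and 5.91% lower). In that first interval limma-voom called 0 (0 unadjusted) and DESeq2 called 0 (1 unadjusted). An edgeR fit with a replicate block called 1, MIR133A1HG. The joint test of any change called 3 of 7, beside 37.1% of all genes, and the difference between the intervals was called for 1 of 7, MIR100HG, beside 9.34% (4.97% higher and 4.38% lower).

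The wells of both days did not overlap for 1, 5 and 4 of the 7 hosts in the first interval, the second interval and the whole course, where 24.8%, 30.6% and 35.1% of all genes did not overlap. The 1 host of the first interval was higher, MIR100HG, beside 10.7% of all genes higher and 14.1% lower without overlap. In the second interval 4 were higher and 1 lower (16.2% and 14.4% of all genes), and over the whole course 3 were higher and 1 lower (17.1% and 18%). The median log2 fold change of the 7 hosts was 0.27, 0.74 and 0.56, beside -0.011, 0.0016 and -0.018 over all genes. With 7 genes, these counts describe the hosts and single out none of them from the genes at large.

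**Figure D2:**
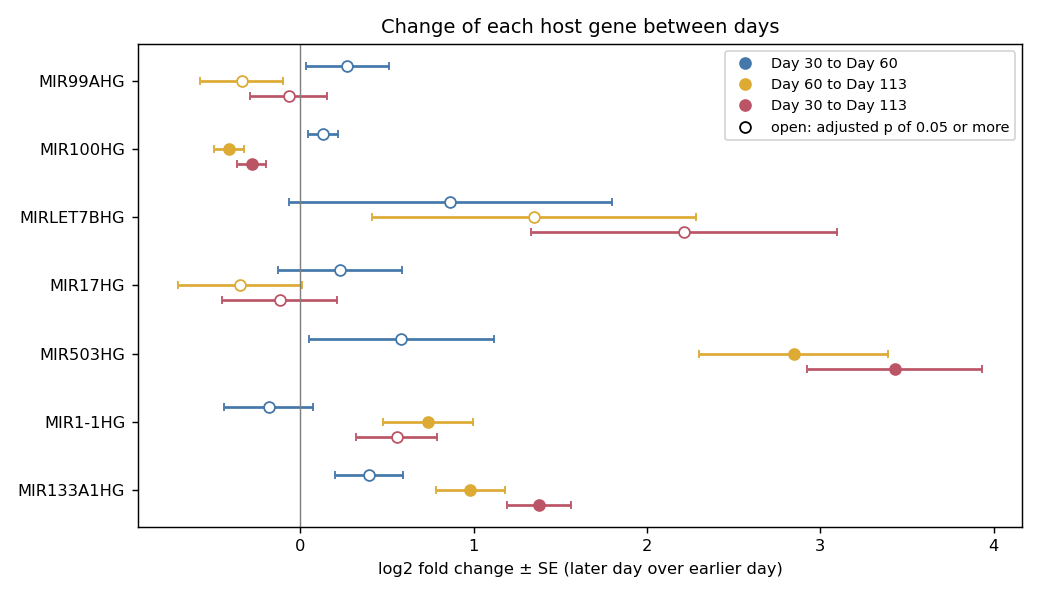
Log2 fold change ± SE (horizontal axis, later day over earlier day) of each host in the 3 comparisons; filled points passed an edgeR adjusted p of 0.05 and open points did not. MIR503HG shows the longest shift, 3.43 from Day 30 to Day 113, and MIR100HG is the host with filled points below 0.

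Among the let-7 hosts examined, MIR100HG was the most abundant and the one whose fall was called. It held 74.8, 81.2, 82.7 and 80.4 CPM in the Day 30 wells, 90.5, 86.7 and 84.8 CPM at Day 60, and 69.9, 62.3, 68.7 and 61.7 CPM at Day 113. All Day 60 wells were above all Day 30 wells, and all Day 113 wells were below both. The difference between Day 30 and Day 60 was not called (log2 0.13 ± 0.09, SE, edgeR adjusted p = 0.44). From Day 60 to Day 113 the gene fell by 0.41 ± 0.09 on the log2 scale (SE, adjusted p = 0.0034), which is 1.33-fold lower, and from Day 30 to Day 113 it fell by 0.28 ± 0.08 (adjusted p = 0.015). The difference between the intervals was -0.54 ± 0.16 (SE, adjusted p = 0.0399), and it was not called without any 1 of the Day 30 or Day 60 wells or Day 113 replicate 4, with adjusted p up to 0.138.

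MIR99AHG, the host of miR-99a, let-7c and a second miR-125b gene, gave no call. Its wells held 8.10, 5.34, 7.31 and 9.10 CPM at Day 30, 10.7, 6.71 and 9.59 CPM at Day 60, and 8.34, 5.17, 8.19 and 6.74 CPM at Day 113. The 3 days overlapped, and replicate 2 was the lowest well on each day. Its log2 changes were 0.27 ± 0.24, -0.34 ± 0.24 and -0.07 ± 0.22 (SE, adjusted p = 0.57, 0.34 and 0.85), and the last had the opposite sign without Day 30 replicate 4 or Day 113 replicate 2 (0.043 and 0.059). In each interval the 2 let-7 cluster hosts had estimates of the same sign, up and then down.

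MIRLET7BHG, the host of let-7a-3 and let-7b, was near the limit of detection at Day 30. Its counts were 5, 7, 0 and 11 at Day 30, 20, 4 and 10 at Day 60, and 49, 18, 24 and 25 at Day 113, where the limit that a count of 0 allows is 3 counts (0.0856 to 0.12 CPM). In CPM the Day 113 wells, 1.41, 0.675, 0.685 and 1.00, lay above all wells of Day 30 (0 to 0.378) and Day 60 (0.147 to 0.638). The log2 difference from Day 30 to Day 113 was 2.22 ± 0.88 (SE), with an edgeR adjusted p of 0.064, so it was not called. DESeq2 (adjusted p = 0.021), limma-voom (0.030) and edgeR on those days alone (0.042) did call it. GENCODE v29 has 52 exon bases of this host shared with PRR34 and PRR34-AS1, and neither name has a row in the count table. MIR100HG likewise shares 143 exon bases with AP000755.1 and 83 with BLID, names also without a row. Reads in such shared bases cannot be assigned to a single gene.

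The ratio of MIR100HG to MIR99AHG within a library compares the parallel clusters with no scaling between libraries. The count ratio, which is not per length, was 8.82 to 15.2 at Day 30, 8.46 to 12.9 at Day 60 and 8.37 to 12.0 at Day 113. As log2 values these were 3.44 ± 0.36 (SD, n = 4), 3.30 ± 0.33 (SD, n = 3) and 3.23 ± 0.25 (SD, n = 4). The differences of -0.14, -0.08 and -0.22 (first interval, second interval, whole course) had two-sided exact permutation p-values of 0.686, 0.629 and 0.343, adjusted 0.686 for each of the 3. With 4 wells on each day, as in the whole course, the smallest p that the test allows is 0.0286. The intervals include Day 60, with 3 wells, where fewer arrangements exist and the limit is higher. After adjustment over the 3 tests, none could pass the threshold used for calls, so these p-values cannot decide whether the ratio changed. The first difference reversed to 0.022 without Day 30 replicate 2 and the second to 0.115 without Day 60 replicate 2.

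Most genes reported as let-7 targets fell over the culture. Of 20 genes listed, 14 fell and 0 rose from Day 30 to Day 60, 13 fell and 3 rose from Day 60 to Day 113, and 15 fell and 1 rose over the whole course. Over all genes 5.91%, 11.1% and 17.2% fell and 4.39%, 12.9% and 17.3% rose in those comparisons. Over the alternatives, 11 to 16, 10 to 14 and 14 to 16 of the listed genes fell, and 0, 2 to 3 and 1 rose. The median log2 fold changes of the list were -0.65, -0.61 and -1.16, beside -0.011, 0.0016 and -0.018 over all genes. The list was drawn up with earlier results of these data known, so its direction is no independent evidence. Mature let-7 was not measured, and whether it changed was not tested.

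HMGA2, a chromatin protein of early development with several let-7 sites, held 150, 173, 182 and 135 CPM at Day 30, 54.4, 42.4 and 50.5 CPM at Day 60 and 5.05, 3.56, 5.11 and 5.46 CPM at Day 113. No wells overlapped between days, and it fell by 5.06 ± 0.15 over the course on the log2 scale (SE, adjusted p = 6.3e-12). IGDCC3, a surface protein of early tissues, fell by 5.16 ± 0.28 (SE), most of it by Day 60 (38.3, 2.13 and 1.09 CPM on average on the 3 days). MYCN fell by 3.19, LIN28B by 2.72, the DNA-binding factor ARID3A by 2.34 and the RNA-binding protein TRIM71 by 2.21. THBS1, a secreted matrix protein, was the member that rose, by 0.78 ± 0.16 (SE, adjusted p = 0.0012). CCND1, CDC25A, CDK6 and NRAS, with log2 values of 0.02, -0.20, -0.22 and 0.08, were the members not called over the whole course.

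**Figure D3:**
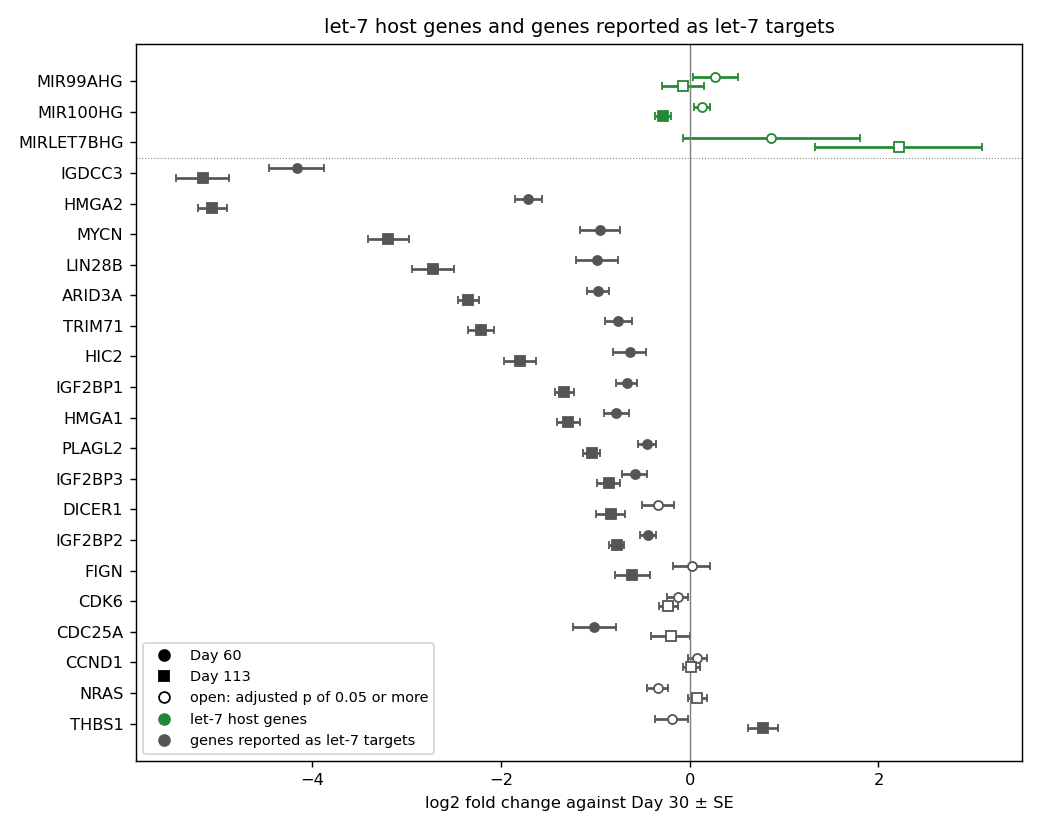
Log2 fold change against Day 30 ± SE (horizontal axis) at Day 60 (circles) and Day 113 (squares). Green marks the 3 let-7 hosts examined and grey marks 19 of the 20 genes reported as let-7 targets. LIN28A was left out because all Day 113 wells were at 0. Filled points passed an edgeR adjusted p of 0.05. Most grey points lie to the left of 0 and further left at Day 113, while among the hosts only MIR100HG at Day 113 is filled.

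Other cell types moved over the same days. Of 10 endoderm and epithelial markers, 10 fell from Day 30 to Day 60, and 9 fell and 0 rose over the whole course. Over all genes 5.91% and 17.2% fell in those comparisons, and 17.3% rose over the whole course. The liver and yolk sac protein AFP averaged 499.8 CPM at Day 30, 5.95 CPM at Day 60 and 1.45 CPM at Day 113. How much of the fall of the let-7 target list lies in such cells was not tested.

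Among factors that act on let-7 itself, the LIN28A and LIN28B transcripts fell and most of the others were not called. LIN28B, which keeps let-7 precursors from maturing, held 18.8, 19.1, 19.1 and 18.1 CPM at Day 30, 9.51, 8.14 and 10.8 CPM at Day 60 and 2.05, 4.01, 2.00 and 3.41 CPM at Day 113. The 3 days did not overlap, and the fall was called in both intervals (-0.98 ± 0.22 and -1.74 ± 0.23, SE, adjusted p = 0.00998 and 8.1e-05). LIN28A had 80, 154, 85 and 103 counts in the Day 30 wells, 0, 6 and 0 at Day 60 and 0 in each Day 113 well, at least 30.3-fold lower against a limit of 3 counts in a library. With LIN28A at that bound the median of the target list was still -1.16.

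Of the 9 let-7 processing genes, 4 were lower and 0 higher from Day 30 to Day 113, where 17.2% of all genes were lower and 17.3% higher. The other 2 that fell were KHSRP, an RNA-binding protein that favours let-7 maturation (-0.30 ± 0.09, SE, adjusted p = 0.015), and TUT4, which adds uridines to let-7 precursors (-0.36 ± 0.13, SE, adjusted p = 0.0405). The KHSRP call was lost without Day 113 replicate 4, where its adjusted p lay at the threshold, and the TUT4 call was lost in 9 of the alternatives, with adjusted p up to 0.096. TUT7, DIS3L2, TENT2, HNRNPA1 and TRIM25 had log2 values between -0.07 and 0.12 and were not called. In the first interval 2 fell, the LIN28 genes, and in the second 1, LIN28B, where 5.91% and 11.1% of all genes fell.

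Genes of the general microRNA machinery were called in both directions. Of 15 genes, 0 were called from Day 30 to Day 60 (0 to 2 in each direction over the alternatives), beside 10.3% of all genes. From Day 60 to Day 113, 2 rose and 4 fell, beside 24% of all genes called. Over the whole course 2 rose and 5 fell, which is 7 of 15 beside 34.5% of all genes called. The 4 that fell in the second interval were 1 without Day 60 replicate 1 or replicate 3 and 2 without replicate 2. DDX5, a helicase of the DROSHA complex, held 347 to 384 CPM at Day 30 and 632 to 735 CPM at Day 113 and rose by 0.93 ± 0.09 (SE, adjusted p = 1.1e-06). DGCR8, the partner of DROSHA, rose by 0.55 ± 0.12, while DROSHA itself was at 0.04 ± 0.10 (SE, adjusted p = 0.78). DICER1, itself reported as a let-7 target and counted in that list too, fell by 0.84 ± 0.15 (SE, adjusted p = 5.8e-04). The Argonautes AGO2 and AGO3 fell by 0.65 and 0.54, AGO1 and AGO4 were not called (0.12 and 0.22), and the export factor XPO5 fell by 0.51.

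The targets reported for the other microRNAs of the MIR99AHG and MIR100HG clusters were divided. Of 8 genes listed for miR-125b, 5 fell and 1 rose over the whole course, with a median of -1.18, and the LIN28 genes are among the 5 (17.2% of all genes fell). ARID3B, a DNA-binding factor, fell by 2.66 ± 0.18 and the receptor ERBB3 by 1.42 ± 0.14 (SE). BMF, a pro-apoptotic protein, fell by 0.94, and BAK1, another, rose by 0.61 ± 0.14 (SE, adjusted p = 0.0030). Of 8 genes listed for miR-99 and miR-100, 2 fell and 1 rose, where 17.2% and 17.3% of all genes did. The receptor FGFR3 fell by 2.49 ± 0.38, BAZ2A fell by 0.76 ± 0.08 and TRIB2 rose by 0.53 ± 0.16 (SE). The TRIB2 call was lost without Day 30 replicate 3 or Day 113 replicate 1, with adjusted p up to 0.057. MTOR and RPTOR, the best known of these targets, were both at 0.13 and not called.

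MIR17HG, whose miR-17-92 microRNAs are known for promoting proliferation and which MYC and E2F factors activate, gave no call. It held 2.67, 2.87, 2.40 and 2.58 CPM at Day 30, 3.86, 2.32 and 3.06 CPM at Day 60 and 2.71, 1.61, 1.57 and 3.81 CPM at Day 113. The days overlapped, and the Day 113 wells spread the most, from 43 to 95 counts. The log2 changes were 0.23 ± 0.36, -0.35 ± 0.36 and -0.12 ± 0.33 (SE, adjusted p = 0.79, 0.53 and 0.82). The last had the opposite sign without Day 113 replicate 2 (0.032) or replicate 3 (0.044).

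Factors that act on MIR17HG did not stay level. E2F1 rose by 1.65 ± 0.19 from Day 30 to Day 113 (SE, adjusted p = 6.9e-06), from 10.8 to 14.6 CPM in the Day 30 wells to 33.7 to 56.6 CPM. MYC rose by 2.33 ± 0.47 from Day 60 to Day 113 (SE, adjusted p = 0.0022), from 0.631 to 2.69 CPM to 4.01 to 8.80 CPM, and by 1.23 from Day 30, a call that 5 single wells could each remove (adjusted p up to 0.083). MYCN fell as given above. Of 10 proliferation markers, 2 rose and 0 fell from Day 30 to Day 60 (4.39% and 5.91% of all genes). From Day 60 to Day 113, 2 rose and 7 fell (12.9% and 11.1% of all genes). Their summed level was 449 to 547, 656 to 910 and 341 to 543 CPM on the 3 days. Over the whole course 3 were higher and 4 lower (17.3% and 17.2% of all genes). MCM5 and PCNA were among those higher and PLK1 and CCNB1 among those lower.

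Of 12 genes reported as miR-17-92 targets, 8 rose and 2 fell from Day 60 to Day 113, where 12.9% and 11.1% of all genes did. Over the whole course 6 rose and 3 fell, where 17.3% and 17.2% of all genes did. All calls together made up 24% and 34.5% of all genes. Over the alternatives, 6 to 8 rose and 1 to 2 fell in the second interval, and 4 to 6 rose and 3 fell over the whole course. TGFBR2, the type II TGF-beta receptor, held 59.9 to 71.0 CPM at Day 30, 98.0 to 118 CPM at Day 60 and 173 to 205 CPM at Day 113, without overlap, and rose by 1.52 ± 0.10 (SE, adjusted p = 2.5e-08). E2F1, counted here too, THBS1 and CYLD also rose, and CDKN1A fell by 0.68 ± 0.14 (SE, adjusted p = 0.0014). E2F2 rose by 1.32 ± 0.43 with an adjusted p of 0.025, which reached 0.083 when single wells were left out.

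MIR503HG changed the most of the 7 hosts. It had 12, 4, 11 and 19 counts in the Day 30 wells, 8, 27 and 18 at Day 60, and 181, 82, 152 and 119 at Day 113. In CPM these were 0.458, 0.133, 0.362 and 0.653, then 0.255, 0.995 and 0.57, then 5.22, 3.07, 4.34 and 4.77. The Day 30 and Day 60 wells overlapped, and every Day 113 well was above all of them. The first interval was not called (log2 0.58 ± 0.54, SE, adjusted p = 0.59), and omitting Day 60 replicate 2 or replicate 1 moved its value to 0.040 or 0.97. The gene then rose by 2.85 ± 0.55 (SE, adjusted p = 0.0015), and over the whole course by 3.43 ± 0.51 (adjusted p = 8.3e-05), which is 10.8-fold. The difference between the intervals was 2.26 ± 0.97 (SE, adjusted p = 0.16) and was not called, with 3.35 and 1.5 when those wells were omitted, so the rise is not shown to belong to the second interval alone.

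Endothelial markers rose in the same interval, 7 of 7 by edgeR, where 12.9% of all genes rose. PECAM1 went from 10.8 to 186 CPM on average between Day 60 and Day 113. The wells were not ordered alike. Day 113 replicate 1 had the highest sum of endothelial markers, 762 CPM, and the highest MIR503HG, 5.22 CPM. Replicate 4 had the lowest sum, 188 CPM, and the second highest MIR503HG, 4.77 CPM. Of 11 fibroblast and epicardial markers, 7 rose and 1 fell in the same interval (12.9% and 11.1% of all genes). Their summed level was 2273 to 3719 CPM at Day 60 and 5632 to 13314 CPM at Day 113. Of 5 smooth muscle markers, 3 rose and 0 fell. The part of these cell types in the rise of MIR503HG was not tested.

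**Figure D4:**
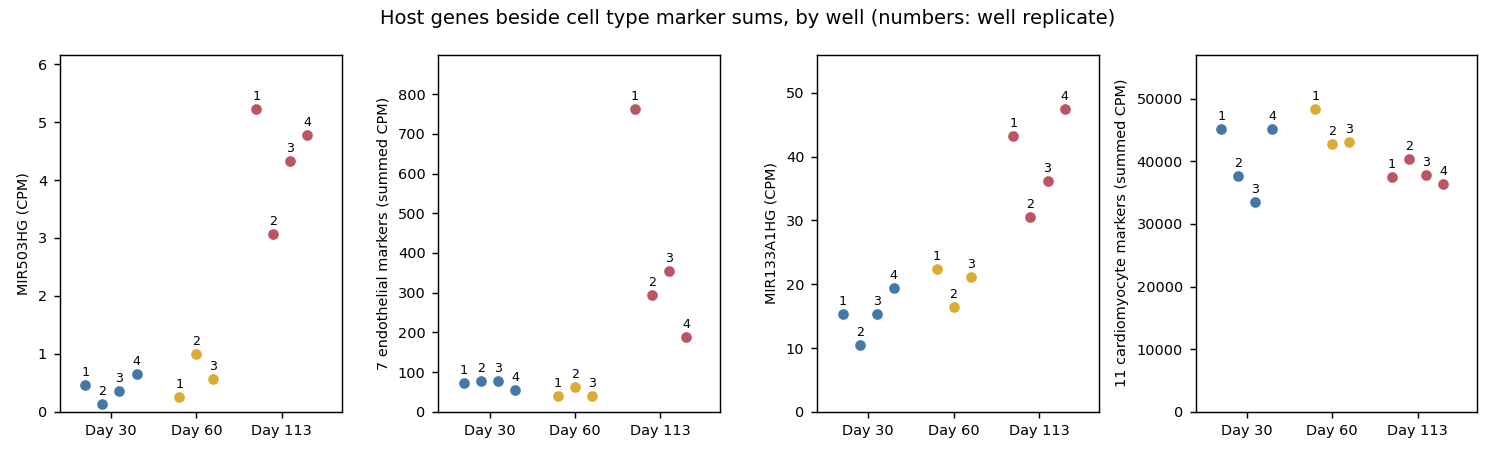
MIR503HG, the sum of 7 endothelial markers, MIR133A1HG and the sum of 11 cardiomyocyte markers (vertical axes, CPM from 0) in every well by day, with the well replicate number beside each point. MIR503HG and the endothelial sum are both higher at Day 113 but order its wells differently, and MIR133A1HG is higher at Day 113 while the cardiomyocyte sum stays between 36400 and 40307 CPM.

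Genes reported as targets of miR-424 and miR-503 are mostly drivers of the cell cycle, and they did not move one way. Of 11, 2 rose and 2 fell in each interval, where 10.3% and 24% of all genes were called. Over the whole course 1 rose and 2 fell, which is 3 of 11 beside 34.5% of all genes called. In the first interval 1 rose without any 1 of Day 30 replicates 1, 3 and 4 or Day 60 replicates 1 and 2. In the second interval 0 rose without Day 60 replicate 1 or replicate 3. CCND2, a D-type cyclin, fell by 0.98 ± 0.09 from Day 30 to Day 113 (SE, adjusted p = 5.2e-07), and its Day 113 wells, 157 to 181 CPM, were below all others. CCND3, another D-type cyclin, rose by 1.05 ± 0.16 (SE, adjusted p = 1.2e-04). E2F3 fell by 0.49 ± 0.12, and CCND1, CCNE1 and WEE1 were not called over the whole course. The nearest gene of the table on each side, HPRT1 and the non-coding LINC00629 at 3.4 kb, had log2 values of 0.41 ± 0.12 (SE, adjusted p = 0.014) and -0.51 ± 0.34 (adjusted p = 0.27) over the whole course.

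Both hosts of miR-1 and miR-133a were called higher from Day 60 to Day 113, MIR1-1HG at the threshold. MIR133A1HG held 15.4, 10.4, 15.4 and 19.4 CPM at Day 30, 22.4, 16.4 and 21.1 CPM at Day 60 and 43.2, 30.6, 36.2 and 47.5 CPM at Day 113. The first days overlapped and the Day 113 wells were above all others. The first interval gave 0.40 ± 0.20 on the log2 scale (SE, adjusted p = 0.24). Only the edgeR fit with a replicate block called it (0.53, adjusted p = 0.0112). The second interval gave a rise of 0.98 ± 0.20 (adjusted p = 0.0022), and the whole course a rise of 1.38 ± 0.18 (adjusted p = 3.2e-05). The last call held under every alternative run, with adjusted p from 1.9e-11 to 2.3e-04. The difference between the intervals, 0.58 ± 0.35, was not called (adjusted p = 0.34).

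MIR1-1HG held 6.61, 4.84, 6.45 and 9.93 CPM at Day 30, 4.50, 7.48 and 6.43 CPM at Day 60 and 12.4, 9.41, 8.07 and 11 CPM at Day 113. The Day 113 wells were above the Day 60 wells but overlapped with the Day 30 wells through Day 30 replicate 4. The rise from Day 60 to Day 113 was 0.74 ± 0.26 (SE) with an adjusted p of 0.0494, at the threshold. It was lost in 12 of 20 alternatives, among them RLE scaling (adjusted p = 0.0535), upper-quartile scaling (0.074) and leaving out Day 60 replicate 1 (0.205), and the range over all of them was 0.034 to 0.205. From Day 30 to Day 113 the value was 0.56 ± 0.24 (SE, adjusted p = 0.082), not called except without Day 30 replicate 4 (0.020). Whether the hosts differ in their rise was not tested.

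Cardiomyocyte markers were divided over the same days. Of 11, 3 rose and 0 fell from Day 30 to Day 60, 2 rose and 2 fell from Day 60 to Day 113, and 4 rose and 2 fell over the whole course. Over all genes, 4.39% rose and 5.91% fell, 12.9% rose and 11.1% fell, and 17.3% rose and 17.2% fell in those comparisons. MYL2, the ventricular myosin light chain, rose by 2.32 ± 0.21 over the course (SE, adjusted p = 6.0e-07), and TNNI3, the adult cardiac troponin I, rose by 1.93 ± 0.14 (SE, adjusted p = 5.3e-08). TNNT2, cardiac troponin T, rose by 0.66 ± 0.15 (SE, adjusted p = 0.0032). TNNI1, another troponin I gene, rose by 0.40 (edgeR adjusted p = 0.019), a call lost without Day 30 replicate 1 or 3 (adjusted p up to 0.052). The summed level at Day 113, 36400 to 40307 CPM, lay within or below the range of the earlier days, 33480 to 45196 CPM at Day 30 and 42704 to 48342 CPM at Day 60. MYH7, a cardiac myosin heavy chain, fell by 0.73 ± 0.13 from Day 30 to Day 113 (SE, adjusted p = 5.2e-04), and ACTN2 fell by 0.64 (adjusted p = 4.0e-04).

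The upstream windows of the muscle hosts hold common letters that are printed here because both genes moved the same way after Day 60. For MIR1-1HG that call was at the threshold, as given above. The windows run from 160 to 11 bases before the annotated start, 5′ to 3′ on the strand of each gene (RefSeq, GRCh38.p14). Capitals mark the 2 runs of at least 12 bases that both windows share; shorter shared stretches are not marked.
MIR1-1HG, chr20:62550293-62550442, plus strand: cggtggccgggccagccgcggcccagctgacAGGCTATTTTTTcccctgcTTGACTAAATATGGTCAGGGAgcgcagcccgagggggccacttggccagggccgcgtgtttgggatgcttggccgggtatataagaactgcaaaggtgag
MIR133A1HG, chr18:21831417-21831566, minus strand: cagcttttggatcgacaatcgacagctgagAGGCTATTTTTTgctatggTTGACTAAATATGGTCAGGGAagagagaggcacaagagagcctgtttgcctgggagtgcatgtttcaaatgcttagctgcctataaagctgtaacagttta

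The longer run, TTGACTAAATATGGTCAGGGA, has 21 bases and begins 110 bases before the start of MIR1-1HG and 111 before that of MIR133A1HG. Among 35116 promoter windows of 300 bases, searched on both strands, it was found in 2 (0.0057%), those of the hosts themselves. The shorter run, AGGCTATTTTTT, has 12 bases, begins 129 and 130 bases before the starts and was found in 7 windows (0.0199%). Inside the longer run lies CTAAATATGG, which resembles the CArG element that SRF binds and which 16 windows held (0.0456%). Inside the shorter run lies CTATTTTT, part of the A and T rich element that MEF2 proteins bind, in 478 windows (1.36%). These are matches of letters only, and no binding was measured. The runs and the stretches inside them were taken from the host windows. The hosts' own matches were therefore fixed in advance, and the shares are no test of rarity.

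Of the factors known to act on these promoters, SRF rose and the MEF2 genes were not called. SRF, which is also reported as a miR-133a target, held 74.0 to 109 CPM at Day 30, 80.3 to 117 CPM at Day 60 and 153 to 188 CPM at Day 113 and rose by 0.90 ± 0.13 (SE, adjusted p = 7.7e-05). MEF2A, MEF2C and MEF2D had log2 values of 0.03, -0.31 and -0.11 over the whole course. MYOCD, the coactivator of SRF, was at -0.32 ± 0.11 (SE, adjusted p = 0.039), a fall that 8 alternatives removed (adjusted p up to 0.114). TBX5 rose by 0.43 ± 0.12 in the first interval and fell by 0.56 ± 0.12 in the second (SE), and 5 single wells could each remove the first call (adjusted p up to 0.115). NKX2-5 was not called, and SMAD3 fell by 0.34. Over the 15 listed regulators of all hosts, 4 rose and 4 fell from Day 30 to Day 113, where 17.3% and 17.2% of all genes did. Of these regulators, 2 rose without any 1 of Day 30 replicates 1, 3 and 4 or Day 113 replicates 1 and 3.

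Genes reported as miR-1 or miR-133a targets were called in both directions. Of 15, 1 rose and 3 fell from Day 30 to Day 60, where 10.3% of all genes were called. From Day 60 to Day 113, 6 rose and 3 fell, where 24% of all genes were called (12.9% higher and 11.1% lower). Over the whole course 2 rose and 4 fell, a share of calls near the 34.5% of all genes. GJA1, the connexin of working heart muscle, held 152 to 185 CPM at Day 30, 238 to 264 CPM at Day 60 and 370 to 472 CPM at Day 113, without overlap, and rose by 1.27 ± 0.10 (SE, adjusted p = 1.9e-07). SRF rose as given above. CCND2, NFATC4 and CNN2 fell by 0.98, 0.69 and 0.49, and HAND2, a heart transcription factor, fell by 0.42 ± 0.14 (SE, adjusted p = 0.025), a call that 4 single wells could each remove (adjusted p up to 0.089). TAGLN2 fell by 2.22 ± 0.31 in the first interval and rose by 2.23 ± 0.31 in the second (SE), with means of 50.6, 10.9 and 50.8 CPM on the 3 days.

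The neighbours of the muscle hosts moved differently from each other. MIR1-1HG-AS1 overlaps the start of MIR1-1HG by 1109 bases on the other strand, with no shared exon base in GENCODE v29. It held 16.6 to 25.9 CPM at Day 30, 15.3 to 21.9 CPM at Day 60 and 31.6 to 34.0 CPM at Day 113 and rose by 0.77 ± 0.16 in the second interval (SE, adjusted p = 0.0031). Whether counting used strand is not given in the sources used here, so reads of the overlap cannot be told apart between the pair. MIB1, a ubiquitin ligase of Notch signalling whose gene spans MIR133A1HG, fell by 0.52 ± 0.13 in the same interval (SE, adjusted p = 0.010), from 227 to 276 CPM to 127 to 205 CPM, a call lost without Day 60 replicate 3 (adjusted p = 0.0504). ABHD3, 120.7 kb away, rose by 0.60 ± 0.20 (SE, adjusted p = 0.041), and 11 alternatives took that call away (adjusted p up to 0.117).

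The nearest genes of the table around the let-7 hosts fell or were not called over the whole course. SORL1 and UBASH3B, 394.6 and 232.9 kb from MIR100HG, had log2 values of -1.36 ± 0.16 and -4.32 ± 0.68 from Day 30 to Day 113 (SE, adjusted p = 1.2e-05 and 1.5e-04). USP25, beside MIR99AHG, fell by 0.27 ± 0.09 (SE, adjusted p = 0.033), a call lost in 7 alternatives (up to 0.099), and CXADR on its other side was not called over the whole course. PPARA, 36.6 kb beyond MIRLET7BHG, fell by 0.44 ± 0.12 (SE, adjusted p = 0.0081), and WNT7B on the other side fell by 2.83 ± 0.95 (SE, adjusted p = 0.030) from a mean of 1.40 CPM to 0.20 CPM. The WNT7B call was lost in 4 alternatives (adjusted p up to 0.076), without Day 30 replicate 1 or 2 or Day 113 replicate 3 or 4. GPC5 beside MIR17HG was not called. LOC112268106, the nearest row on its other side at 3651.4 kb, rose by 2.39 ± 0.59 to Day 60 (SE, adjusted p = 0.017) and then fell by 1.98 ± 0.58 (adjusted p = 0.022). Both calls were lost without Day 60 replicate 2 or replicate 3 (adjusted p up to 0.063).

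The table holds 16 other genes named as microRNA hosts, and edgeR called 3 of them over the whole course, beside 34.5% of all genes. In the first interval 1 fell and 0 rose, and in the second edgeR called 0, where 10.3% and 24% of all genes were called. Over the whole course 1 rose and 2 fell. The medians of the 16 were 0.18, -0.20 and -0.017 in the 3 comparisons. MIR205HG, an epithelial transcript, had 86, 98, 140 and 43 counts at Day 30, 8, 5 and 0 at Day 60 and 0, 0, 0 and 2 at Day 113. Its Day 30 mean, 3.16 CPM, was 26.3-fold above the level of 3 counts in a Day 113 library (at most 0.12 CPM). MIR34AHG, a p53-responsive host, fell by 0.72 ± 0.20 (SE, adjusted p = 0.010), a call at the threshold without Day 30 replicate 4. MIR4435-2HG rose by 0.76 ± 0.27 (SE, adjusted p = 0.039), and 8 alternatives took that call away (adjusted p up to 0.111).

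Protein-coding genes that carry cardiac or vascular microRNAs in their introns were also divided, 4 higher and 4 lower of 14 over the whole course, where 17.3% and 17.2% of all genes were. EGFL7, the endothelial host of miR-126, held 21.0 to 27.8 CPM at Day 30, 9.68 to 14.3 CPM at Day 60 and 29.1 to 58.9 CPM at Day 113. It fell by 1.03 ± 0.21 and then rose by 2.02 ± 0.22 (SE), beside the endothelial markers given above. MYH7, the host of miR-208b, fell as given, and MYH6, the host of miR-208a, was not called, with reads of the similar pair uncertain. TRPM3, the host of miR-204, rose by 2.89 ± 0.61 (SE, adjusted p = 0.0016), though its Day 113 wells ran from 2.63 to 43.0 CPM and limma-voom did not call it (adjusted p = 0.086). PDE2A, the host of miR-139, rose by 2.33 ± 0.53 (SE, adjusted p = 0.0027). SLIT2 and SLIT3, hosts of the miR-218 genes, fell by 0.83 and 0.96.

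The genes whose log2 CPM followed each host most closely over the 11 libraries are given as a description, since all genes share the same wells and days. For MIR133A1HG they were TARDBP (Pearson's r = 0.978), PCYT1A (0.966) and BRINP3 (0.964), and for MIR503HG they included LOC105373456 (0.966) and WASHC2A (0.965). MIR100HG was followed by TRIM59 (0.956), WSB1 (0.954) and LOC284454 (0.953), and MIR1-1HG by TSEN15 (0.952), TANK (0.924) and LINC00472 (0.924). For MIRLET7BHG they were THUMPD2 (0.943), RASSF3 (0.941) and VRK1 (0.926), for MIR17HG NCAPH (0.919), PKNOX1 (0.876) and MPHOSPH9 (0.862), and for MIR99AHG FAM13A-AS1 (0.916), MCC (0.911) and ZNF148 (0.892).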

How the data were processed

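Poly(A) RNA of 11 wells was sequenced as paired reads of 150 bases, per the labels' protocols. The authors deposited whole-number read counts for 19990 gene symbols, not normalized, with STAR 2.5.3a, featureCounts 2.0.3 and hg38 named in the submitters' processing notes. All 11 columns matched 1 sample each. The deposited TPM values were not used: gene lengths implied by count over TPM did not match between libraries (median Spearman rho -0.0016 over 55 pairs).

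Genes were tested with edgeR 4.0.16 (quasi-likelihood F-test, TMM factors 0.966 to 1.04, minimum count 10 in filterByExpr, day as the only factor) in R 4.3.3, with Benjamini-Hochberg adjustment over all genes and a threshold of 0.05. "Called", "rose" and "fell" refer to that threshold. A standard error is the absolute log2 fold change over the square root of F. The ratio test used a pseudocount of 0.5 (SciPy 1.17.1). Alternatives used limma 3.58.1 and DESeq2 1.42.0, other scalings and filters, a replicate block and leaving out each library. The library depth puts the limit for a count of 0 at 3 counts, for counting error only, since there were no molecular identifiers. Wells of a day did not hold copies of a library (chi-square per degree of freedom 11.4 to 84), which says nothing of their independence as wells of a single differentiation.

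The host genes and the 18 gene lists were chosen with earlier results of these data known. The rule named every host, for each target, factor and host list up to 6 called genes of largest change over the whole course with a mean CPM of at least 1, all let-7 processing factors, marker lists by their counts, other host genes by the same rule, neighbouring genes, and the 3 genes most correlated with each host at a mean CPM of at least 5. Other list genes are named where a count of 5 or fewer or the known role called for it, after their values were seen. The pluripotency list (2 of its 3 genes in the table fell, TDGF1 and LIN28A) and the miR-22 target list (2 higher and 2 lower of 8) are not discussed further. Those counts are over the whole course, where 17.3% of all genes were higher and 17.2% lower. Some genes that the naming rule or the lists hold are not reported here.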

Additional observations from a re-analysis of the deposited data

Results flagged for a closer look

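The change of MIR100HG differed between the intervals, with a log2 difference of -0.542 (edgeR adjusted p = 0.0399): the gene was 0.13 higher at Day 60 than at Day 30 and fell by 0.41 from Day 60 to Day 113. The test of the difference itself singled it out, and 9 of 19 alternatives took its adjusted p past 0.05. No single well stood apart from its group by Dixon's criterion in the 14 groups of 4 wells that were tested, where chance gives about 1 in 20.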

How the results depend on the processing

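Of the values of single hosts under the alternatives, 514 kept their direction and side of the threshold, 21 lost a call, 5 gained one and 8 changed sign. The fit with a replicate block called 1 host from Day 30 to Day 60 (MIR133A1HG, log2 0.53, adjusted p = 0.0112) and 0 hosts for the difference between the intervals, where MIR100HG had an adjusted p of 0.064. It also ended the MIR1-1HG call from Day 60 to Day 113 (0.102) and changed no other call of a host. Same-numbered wells were weakly and positively correlated (r of 0.0227 to 0.0761 over 10 pairs, 0 over 0.1). Of 11 libraries, 9 correlated best with their own number. The labels do not say whether the numbers mark pairs. The main fit did not use them, so a pairing of wells is not excluded. For any change over the 3 days limma-voom called 5 hosts in place of 3. Leaving out single wells, the hosts called for the difference between the intervals ran from 0 to 1, the ratio of MIR100HG to MIR99AHG changed by -0.33 to 0.022 in the first interval and by -0.197 to 0.115 in the second. Signs also turned in values that were not called: MIR99AHG from Day 30 to Day 113 (-0.188 to 0.059, with 0.043 as well), MIRLET7BHG in the difference between the intervals (-0.254 to 1.76, with -0.015), MIR17HG from Day 30 to Day 113 (-0.417 to 0.044, with 0.032) and MIR1-1HG from Day 30 to Day 60 (-0.347 to 0.041, with 0.023). The cause was not tested. Over all genes, the calls from Day 30 to Day 60 numbered 2060, which dropped to 1323 when Day 30 replicate 2 was omitted, to 1259 for Day 60 replicate 1 and to 1220 for Day 60 replicate 3. The calls for the difference between the intervals numbered 1868, and 643 and 774 when those Day 60 wells were omitted. With a minimum count of 50, and in the fit of Days 30 and 60 alone, MIRLET7BHG was filtered out and gave no value. Depth limits MIRLET7BHG and MIR503HG at Day 30, with at most 11 and 19 counts in a well.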
